A study of Mus musculus with 4 samples.

Results

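Long genes can carry accessible chromatin far from any transcription start site, and the regions described here are of that kind. They are the regions of the deposited table on chromosomes 1 to 19 and X whose annotation, in its short and its detailed form, begins with an intron and whose nearest start site lies more than 100 kb away. The rule used position and annotation only, and no count. It found 1338 of 29121 regions, which is 4.60% of the 29083 regions on those chromosomes, in the introns of 581 host genes. A host gene is the gene of the transcript that the annotation names for the intron.

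Accessibility was measured with ATAC-seq, in which the Tn5 transposase inserts sequencing adapters into open DNA, in neurospheres (floating clusters of neural progenitors) from the hippocampus of newborn (P0) C57BL/6 mice. The cultures were kept for 7 days with FGF-2 and EGF at 20 ng/ml each. The 2 control libraries had the genotype hGFAPCre+, Fgf13+/y, and the 2 Fgf13cko libraries had hGFAPCre+, Fgf13 flox/y. All 4 therefore carried a Cre transgene driven by the human GFAP promoter, and the groups differed in the floxed allele of Fgf13, an X-linked gene whose product, an FGF homologous factor that stays inside the cell, is a partner of voltage-gated sodium channels and of microtubules. The cells of 1 mouse went into 2 wells. Whether the libraries of a group came from separate mice, and which exon is floxed, is not given in the labels, and p-values here reflect only how far these libraries differ within a group, which may be technical.

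Introns of very long genes hold many of the enhancers of the developing brain. Such distal elements are bound by transcription factors, are more specific to a cell type than promoters, and can act on the gene around them or on a neighbour across long distances. Many of the longest mammalian genes serve neurons and glia: they encode adhesion molecules, ion channels, receptors and scaffolds of the synapse. Some overlap common fragile sites, where replication of a long transcription unit tends to fail.

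A few deep intronic regions overlapped windows around RefSeq start sites that the annotation of the deposited regions does not count as their nearest. Of the 1338 regions, 12 overlapped 13 start windows, which run from before to just after a start and span 300 bases (RefSeq, GRCm38.p6, 32851 windows in all). Some overlaps were partial, with 115 bases in Zfp982 and 2 in Scfd2, so not every region need contain the start itself. The windows of the called region, and of the 3 fully covered regions with the highest counts, are shown as the stretches of these regions for which sequence was used here. Capitals mark CG dinucleotides, the sites of DNA methylation. The window of Gm2921 in Galntl6 (chr8:57799618-57799917, plus strand), of Gm30050 in Mast4 (chr13:103096810-103097109, plus strand), 1 of the 2 of Gm32703 in Pde4d (chr13:109440877-109441176, minus strand) and of an internal start of Tspan9 (chr6:128035013-128035312, minus strand) read 5′ to 3′ as follows.
Gm2921 in Galntl6: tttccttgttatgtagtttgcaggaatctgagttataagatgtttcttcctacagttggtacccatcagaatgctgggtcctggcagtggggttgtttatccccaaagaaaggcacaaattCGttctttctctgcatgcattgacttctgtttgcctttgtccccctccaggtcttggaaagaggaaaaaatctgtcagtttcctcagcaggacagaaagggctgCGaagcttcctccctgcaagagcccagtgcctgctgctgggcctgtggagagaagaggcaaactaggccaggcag
Gm30050 in Mast4: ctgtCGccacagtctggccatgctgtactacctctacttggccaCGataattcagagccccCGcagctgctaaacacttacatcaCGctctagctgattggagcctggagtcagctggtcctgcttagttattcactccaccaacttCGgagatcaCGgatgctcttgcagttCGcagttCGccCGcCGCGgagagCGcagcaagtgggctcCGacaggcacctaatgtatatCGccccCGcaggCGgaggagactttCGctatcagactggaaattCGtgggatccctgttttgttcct
Gm32703 in Pde4d: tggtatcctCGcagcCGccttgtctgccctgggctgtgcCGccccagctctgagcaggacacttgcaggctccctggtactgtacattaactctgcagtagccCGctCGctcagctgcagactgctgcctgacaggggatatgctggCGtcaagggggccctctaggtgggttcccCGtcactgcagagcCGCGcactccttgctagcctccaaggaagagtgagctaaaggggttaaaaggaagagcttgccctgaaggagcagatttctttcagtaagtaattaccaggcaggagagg
Internal start of Tspan9: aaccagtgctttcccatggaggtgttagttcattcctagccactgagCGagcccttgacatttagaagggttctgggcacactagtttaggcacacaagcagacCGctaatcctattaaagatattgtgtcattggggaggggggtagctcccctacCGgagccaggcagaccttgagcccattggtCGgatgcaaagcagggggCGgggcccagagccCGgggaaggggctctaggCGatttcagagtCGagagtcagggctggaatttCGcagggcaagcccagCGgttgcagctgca
They held 2, 18, 9 and 10 CG dinucleotides, against a median of 5 over the 13 windows and of 7 over all start windows. The median GC content of the 13 windows was 52.0%, against 52.7% over all windows.

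Of these 4 regions, the one at Gm2921 passed the test. Galntl6 encodes a glycosyltransferase-like protein, and its region (chromosome 8, 57799686 to 57800636, intron 10 of 11) covered 232 bases of the window. Its normalised counts, meaning tags scaled to a common effective library size, were 99.9 and 75.7 in control libraries 1 and 2 and 212 and 202 in Fgf13cko libraries 1 and 2, the order used throughout. Both Fgf13cko libraries lay above both controls, with a log2 fold change of Fgf13cko over control of 1.24 (SE 0.20, adjusted p = 0.0102). The other 3 regions covered their windows in full and did not pass. In Mast4, the gene of a microtubule-associated kinase, the counts were 103 and 101 against 127 and 122 (log2 fold change 0.29, adjusted p = 0.406). In Pde4d, which encodes a cAMP phosphodiesterase, they were 188 and 219 against 330 and 235 (0.47, adjusted p = 0.246). In Tspan9, a tetraspanin gene, they were 146 and 128 against 247 and 188 (0.66, adjusted p = 0.0917). In all 3, both Fgf13cko values were above both control values.

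Both strands of the 13 windows were searched for 7 short motifs. The E-box CAGCTG was found in 6 of them, against 16.3% of all start windows, and the SOX site ACAAAG in 5, against 18.7%. The GC box GGGCGG was in 4, against 35.7% of all windows. The AP-1 site TGANTCA and the NFI site TTGGCA were in 2 each, against 7.81% and 14.1%. The homeobox site TAATTA was in 1, against 5.29%, and the CRE TGACGTCA was in 0, against 1.79%. The GC box and the CRE each contain a CG, and no other pair of these motifs is nested. The 2 windows of Gm32703 in Pde4d overlap each other, so the same E-box and the same GC box are counted in both. Windows were searched whole, so a match can lie outside a region that covers only part of its window. These are matches of letters in 13 windows, and no test was made on them.

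The deep intronic regions were small and spread over many genes. Their median width was 735 bp (lower quartile 589 bp), close to the 751 bp of intronic regions of the same annotation within 100 kb of a start site, called near intronic below (6720 regions). The median distance to the nearest start was 162 kb (quartiles 124 and 226), 444 lay beyond 200 kb and 59 beyond 500 kb. The farthest, in Lrp1b, lay 1521 kb away. Only 10.7% lay in the first intron of the named transcript, against 42.2% of the near intronic regions. The nearest start belonged to the host gene for 771 regions and to another gene for 567.

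The host genes were long. Their median length was 355 kb, against 17.1 kb over 21900 protein-coding genes of the RefSeq table, and the longest was Dmd, the dystrophin gene, at 2.39 Mb. The distance rule selects for this. Of the 581 hosts, 266 held 1 region and 68 held 5 or more. Macrod2, which encodes an ADP-ribosyl hydrolase, held 14. Auts2, a neurodevelopmental regulator, and Rad51b, a DNA repair gene, held 11 each, and Wwox, a gene of a common fragile site, held 9. Fgf13 hosted none: 4 regions were annotated to it, at most 75.4 kb from a start, and none of them passed the test (adjusted p from 0.0848 to 0.960). They need not overlap the deleted part and so do not check the genotype.

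The libraries differed in more than their genotype. They held 24.9 and 26.0 M tags in the controls and 16.8 and 13.1 M in Fgf13cko, of which 23.4% and 27.0% against 9.54% and 9.19% were mitochondrial. Tags in the nuclear regions were closer, between 2.55 and 3.24 M, and a deep intronic region held a median of 45, 51, 39.5 and 53 raw tags in control 1, control 2, Fgf13cko 1 and Fgf13cko 2. Across the deep intronic regions the Pearson correlation of log2 counts was 0.922 for the control pair, 0.840 for the Fgf13cko pair and 0.679 to 0.728 for pairs across groups (across regions of shared libraries, which are not independent). The Fgf13cko libraries were the less alike pair, with a median difference of 0.407 on the log2 scale against 0.237 between the controls, and Fgf13cko 2 lay above Fgf13cko 1 in 64.1% of the tested regions.

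Markers of cell types were read at their promoter regions. The neural stem and radial glia promoters were open in all libraries, with 6 of 8 genes measured (Vim, Pax6, Fabp7, Hes5, Sox2 and Nes), none past the threshold, and a summed count of 1236 and 1476 in control libraries, against 1702 and 1396. Of 7 neuron genes 4 were measured, with sums of 259 and 290 against 595 and 545. Of these Map2, Syt1 and Camk2a rose, and Tubb3, at a log2 fold change of -0.11, did not pass. Of the astrocyte genes 3 of 6 were measured and Apoe fell, with sums of 222 and 230 against 216 and 169. Aldh1l1 stood at a log2 fold change of 0.41 and S100b at -0.55, and neither passed. Oligodendrocyte lineage genes were measured at 1 promoter of 6 (Olig2, with 160 and 171 against 275 and 198) and ependymal genes at 1 of 4 (Foxj1, with 111 and 106 against 105 and 128), and neither passed. Microglia and vascular genes were measured at 1 promoter each (P2ry12 and Pdgfrb), with sums of at most 38.7, and none of the 5 meningeal fibroblast genes had a promoter region. The part of these cell types in the changes below was not tested. In bulk chromatin, more cells with an open region and a more open region per cell cannot be told apart.

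Deep intronic regions with more accessibility in Fgf13cko outnumbered those with less. Of 1334 tested regions 160 rose (12.0%) and 34 fell (2.55%) at an adjusted p under 0.05 (edgeR quasi-likelihood test, Benjamini-Hochberg over all 28801 tested regions). The background over all tested regions was 6.2% for a rise, 1.64% for a fall and 7.84% for either. Rises were thus in excess over the whole table: they made up 82.5% of the deep intronic calls and 79.1% of all calls. The same share was 82.7% in near intronic regions and 80.6% in intergenic regions beyond 100 kb. The median log2 fold change was 0.14, against -0.00 over all regions, and the 160 risen regions had a median of 1.26 and the 34 fallen ones of -1.42. Both Fgf13cko values were above both controls in 486 regions (36.4%, background 28.5%) and below both in 296 (22.2%, background 25.2%), which included all 194 called regions. The number of calls depended on single libraries: without control replicate 1 it was 33 and without control replicate 2 it was 17, all of them among the 194. With either Fgf13cko replicate left out it was higher, among deep intronic regions and over all tested regions alike. In these fits the lone library of an arm is assumed to vary like the others. Without Fgf13cko replicate 1 the median log2 fold change was 0.23, against -0.01 over all regions. Without Fgf13cko replicate 2 the median was -0.04, against -0.02 over all regions. Scaled by all region tags, mitochondrial ones included, 721 rose and 3 fell, and the median of all regions itself moved to 0.97. The risen share was then 54.0%, below the 61.3% over all tested regions.

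**Figure D1:**
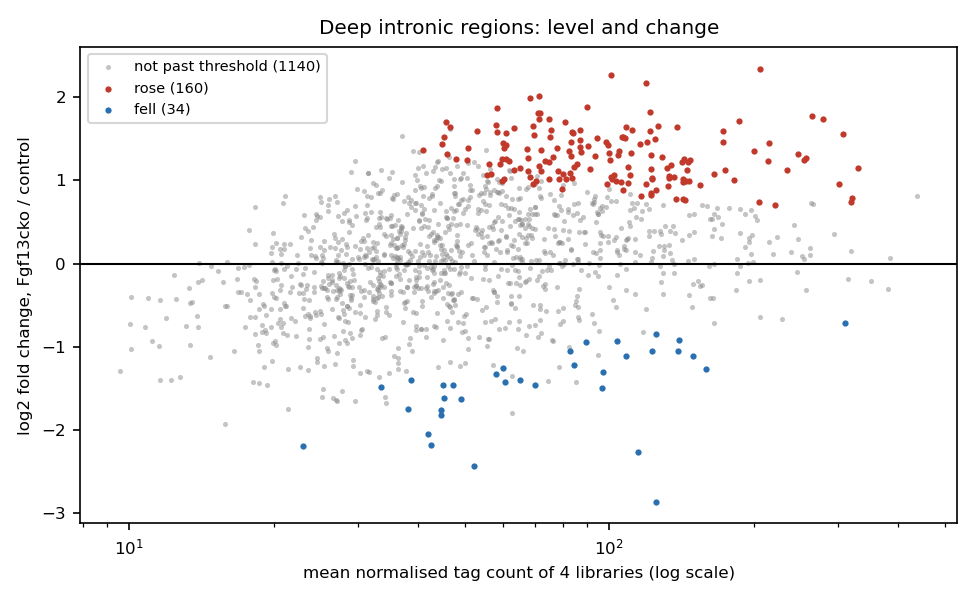
Each point is 1 of the 1334 tested deep intronic regions, at its mean normalised count over 4 libraries (log axis) and its log2 fold change of Fgf13cko over control. The 160 risen regions (red) lie mostly at higher counts, and the 34 fallen ones (blue) are fewer and reach -2.86.

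Risen regions were mostly found at higher mean counts over the 4 libraries, a mean that a rise itself lifts. Risen regions had a median of 54.6 in the controls and 139 in Fgf13cko. Split into 4 equal bins by that mean, none of the 334 regions of the lowest bin (up to 32.2) rose in edgeR, with 19 at an unadjusted p under 0.05. The share that rose was 1.80% in the second bin, 14.7% in the third and 31.4% in the highest (above 79.6). Near intronic regions in the same count ranges rose in 0, 0.924, 10.2 and 21.6%, and all other regions on these chromosomes in 0, 0.904, 6.78 and 9.81%. Split instead by the mean of the control libraries alone, a split chosen after seeing the data that a rise does not lift, 4.49, 11.1, 15.9 and 16.5% of the deep intronic regions rose from the lowest bin to the highest. Near intronic regions in these ranges rose in 3.64, 8.90, 13.1 and 10.8%, and all other regions on these chromosomes in 3.54, 7.08, 9.04 and 4.77%. No test was made of these differences.

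The peak lists gave a second view of the same libraries. Every one of the 1338 regions overlapped a peak in all 4 lists, so regions open in 1 group only are not among them. The authors' fold enrichment had a median of 4.56 and 4.69 in the control lists, and of 5.23 and 4.92 in the Fgf13cko lists. For the 160 risen regions the medians were 4.47 and 4.49 in the control lists, and 5.74 and 5.75 in those of Fgf13cko. For the 34 fallen regions they were 6.44 and 6.96 against 4.66 and 4.24. These values come from the reads that also gave the counts and serve as a description.

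The largest rise was in Stim2, the gene of a calcium sensor of the endoplasmic reticulum that activates store-operated calcium entry. Its region (chromosome 5, 54100395 to 54101486, intron 3 of 11, 102 kb from a start) held 58.8 and 75.7 in control libraries, against 383 and 306. The lower Fgf13cko value was far above the higher control, and the log2 fold change was 2.34 (SE 0.22, adjusted p = 0.00384). In Cdh13, which encodes T-cadherin, a cadherin without a cytoplasmic domain, a region of intron 2 (chromosome 8, 118601457 to 118602526) held 45.5 and 41.4 against 212 and 178 (2.17, SE 0.21, adjusted p = 0.00384). Nlgn1 encodes neuroligin 1, a postsynaptic adhesion protein of excitatory synapses, and its region (chromosome 3, 25844390 to 25845286, intron 4 of 6) held 28.9 and 27.1 against 111 and 119 (2.02, SE 0.24, adjusted p = 0.00423). In none of these did the groups overlap.

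Other large rises fell in genes of varied function. Col22a1, a collagen gene, had 35.3 and 33.4 against 143 and 192 (log2 fold change 2.27), in a region whose nearest start is that of Fam135b. A second Mast4 region, apart from the one at the start window, had 29.4 and 25.8 against 109 and 109 (2.00). Foxn3, a forkhead repressor gene, had 34.3 and 42.7 against 176 and 107 (1.88). In each of these the groups were apart, though the Fgf13cko values at Foxn3 differed widely from each other. Rptor, the gene of the mTORC1 subunit Raptor, had 26.4 and 23.7 against 74.5 and 109 (1.87). Cdh4, the R-cadherin gene, had 51.4 and 55.4 against 193 and 188 (1.83), and its region is nearest to the start of Taf4. Dcc, the netrin receptor gene, had 23.5 and 39.3 against 122 and 99.1 (1.80), and Dpf3, which encodes a BAF complex subunit, had 33.8 and 30.0 against 127 and 95.9 (1.80). All 10 of these rises were called when either Fgf13cko library was left out, while Dcc was lost without control replicate 1 and Rptor and Dpf3 without control replicate 2.

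The largest fall was in Atp8a2, which encodes a phospholipid flippase of neurons. Its region (chromosome 14, 59736905 to 59737681, intron 32 of 35, nearest to the start of Shisa2) held 196 and 245 in the controls, against 31.5 and 28.5, a log2 fold change of -2.86 (SE 0.23, adjusted p = 0.00384). In Ephb1, the gene of an Eph receptor tyrosine kinase that guides axons, a region (chromosome 9, 102192942 to 102194703, intron 3 of 15) held 200 and 182 against 30.9 and 47.4 (-2.27, SE 0.24, adjusted p = 0.00385). These were the 2 of the 10 largest falls that were still called when either control library was left out. Stk39, the gene of the SPAK kinase that regulates cation-chloride cotransporters, held 101 and 76.9 against 6.30 and 24.8 (-2.43, SE 0.47, adjusted p = 0.0169). Its Fgf13cko values were apart from the controls but differed several-fold from each other.

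The remaining large falls were of regions with few tags left in Fgf13cko. Ntrk2, the TrkB neurotrophin receptor gene, had 76.9 and 63.4 against 11.5 and 18.4 (-2.18), and Gli3, a transcription factor of the hedgehog pathway, had 42.1 and 33.8 against 5.73 and 10.5 (-2.19, adjusted p = 0.0493). Csmd1, which encodes a complement-regulating membrane protein, had 68.1 and 67.2 against 6.88 and 25.3 (-2.05). Dpyd, the gene of a pyrimidine-degrading enzyme, had 79.8 and 58.8 against 13.8 and 25.8 (-1.82). Hunk, a kinase gene, had 65.1 and 73.5 against 17.8 and 22.1 (-1.76). Erbb4, the neuregulin receptor gene, had 44.1 and 73.5 against 15.5 and 19.5 (-1.74), and Kcnh5, a voltage-gated potassium channel gene, had 62.2 and 86.2 against 19.5 and 28.5 (-1.63). In each the 2 groups were apart. In limma-voom the falls at Gli3, Csmd1, Dpyd and Erbb4 did not pass, and with factors from promoter regions those at Gli3, Csmd1 and Erbb4 did not. Scaled by all region tags, 3 of the 10 falls passed (Atp8a2, Ephb1 and Ntrk2).

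**Figure D2:**
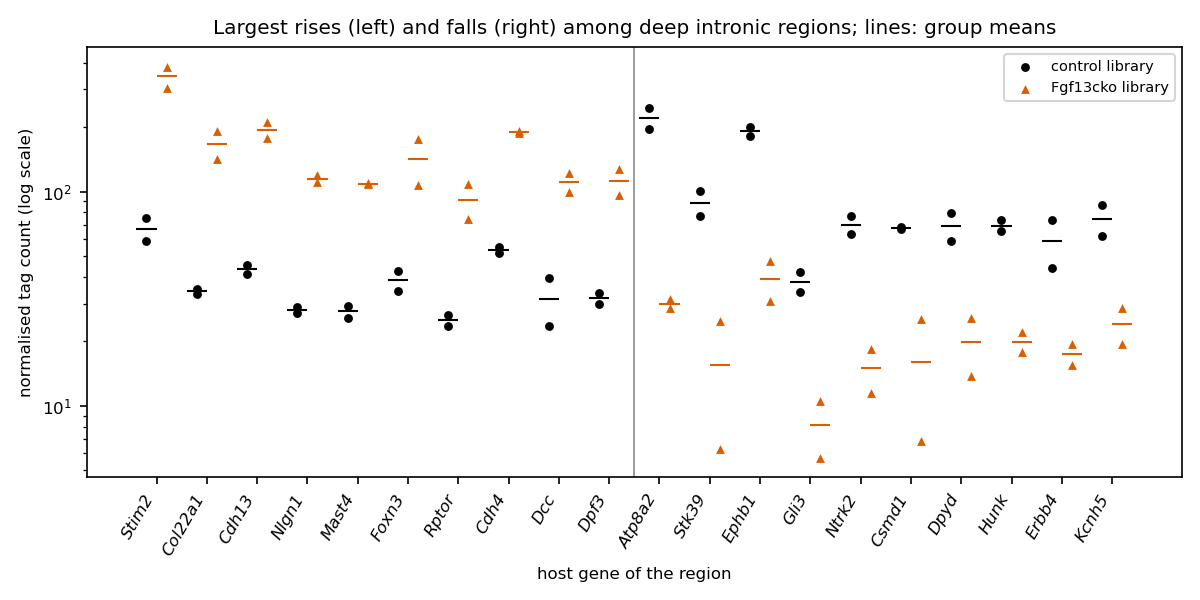
Normalised counts (log axis) of the 10 largest rises (left) and the 10 largest falls (right), with control libraries as circles, Fgf13cko libraries as triangles and group means as lines. At Stim2 the Fgf13cko libraries stand at 383 and 306 above controls at 58.8 and 75.7, and at Atp8a2 they stand at 31.5 and 28.5 below controls at 196 and 245.

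Of the 5 deep intronic regions with the highest mean counts, taking 1 per host, 2 rose and 3 did not pass. The highest mean count was in Agbl4, the gene of a tubulin deglutamylase, with 326 and 309 against 657 and 460 (log2 fold change 0.82, adjusted p = 0.0626). Astn2, which encodes a protein of glia-guided neuronal migration, had 364 and 389 against 391 and 396 (0.06, adjusted p = 0.880). Sox5, an SRY-related transcription factor gene, had 376 and 377 against 380 and 269 (-0.21, adjusted p = 0.616), and there the groups overlapped. Npas3, a transcription factor of neurogenesis, rose from 207 and 201 to 540 and 369 (1.15, adjusted p = 0.0186). Nckap5 rose from 233 and 239 to 423 and 389 (0.79, adjusted p = 0.0348). The fold enrichments of the Npas3 and Nckap5 regions in the peak lists moved the other way, as given above. Both calls were lost when either control library was left out.

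The 5 most distant regions, taking 1 per host, did not follow 1 direction. They stand for 16 regions in these 5 hosts that lay at least as far from a start. In Lrp1b, a lipoprotein receptor family gene of a fragile site, the farthest region had 60.2 and 75.7 against 52.7 and 31.6 (log2 fold change -0.70, adjusted p = 0.229). In Macrod2 the counts were 38.2 and 29.2 against 37.2 and 39.0 (0.18, adjusted p = 0.820), and in Ptprd, a receptor phosphatase gene, 42.1 and 44.0 against 48.1 and 39.5 (0.03, adjusted p = 0.964). The Macrod2 and Ptprd groups overlapped. At 823 kb, a region of Pcdh9, a protocadherin gene, rose from 130 and 163 to 365 and 278 (1.13, adjusted p = 0.0167), a call that was lost when either control library was left out. The Erbb4 region that fell, at 965 kb, was the third most distant of the named ones.

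By distance, the share of risen regions was lowest within 10 kb among the bins up to 500 kb, highest at 150 to 200 kb and lower beyond. It was 13.0% of 571 tested regions at 100 to 150 kb, 14.6% of 322 at 150 to 200 kb, 9.39% of 245 at 200 to 300 kb and 10.2% of 137 at 300 to 500 kb. Beyond 500 kb 2 of 59 rose (3.39%) and 1 fell. Their median mean count, 38.7, was also lower than the 48.7 at 100 to 150 kb, and the part of depth in this was not tested. Below the 100 kb limit the shares were 7.42% within 10 kb, 10.5% at 10 to 50 kb and 10.3% at 50 to 100 kb. These differences were not tested. Just inside the limit, at 100 to 110 kb, 25 of 169 regions rose, and just outside it, at 90 to 100 kb, 14 of 216 rose. The nearest region outside was in Kalrn at 99940 bp (log2 fold change -0.25) and the nearest inside in Rgl1 at 100095 bp (-0.09).

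**Figure D3:**
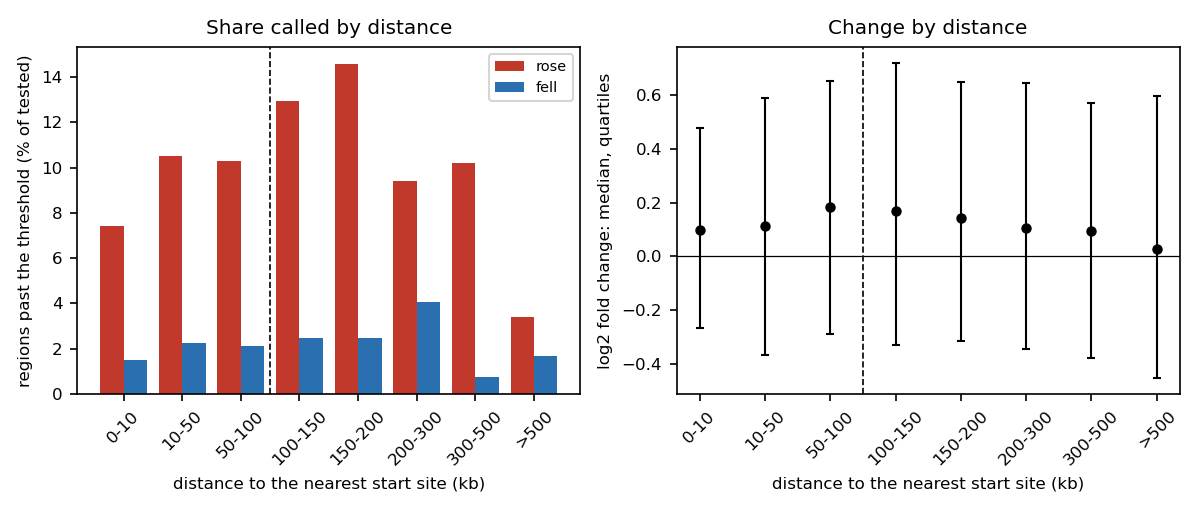
Left, the percentage of tested intronic regions that rose (red) or fell (blue) by distance to the nearest start site in kb. Right, the median log2 fold change with its quartiles. The dashed line marks 100 kb, beyond which the risen share goes from 13.0% and 14.6% to 9.39%, 10.2% and 3.39%.

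Compared with other kinds of region, the deep intronic ones stood nearest to other distal chromatin. Near intronic regions rose in 9.47% and fell in 1.97% of 6684 tested (median log2 fold change 0.12). Intergenic regions more than 100 kb from a start rose in 10.2% and fell in 2.46% (median 0.08). Promoter regions rose in 1.16% and fell in 0.919% (median -0.10). As shares of the nuclear region tags, deep intronic regions took 2.92 and 2.88% of control tags, against 3.17 and 3.63% of Fgf13cko tags, a difference of 0.502 percentage points. Both Fgf13cko shares were higher, and the exact two-sided permutation test gave p = 0.333, the smallest that 2 against 2 libraries allow.

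Within each library, deep and near intronic tags kept almost the same ratio. The log2 ratio of deep to near tags was -2.52 in control 1, control 2 and Fgf13cko 1 and -2.45 in Fgf13cko 2. The group means differed by 0.04 (exact permutation p = 0.333), most of it from Fgf13cko 2: without that library the difference was 0.0045. Against intergenic regions beyond 100 kb the log2 ratio was higher in Fgf13cko by 0.06, and against promoters by 0.37, each with the same p.

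Inside the set, the risen share was read by nearest start, intron, number of regions per host and chromosome, with no test of the differences. It was 12.6% where the nearest start was the host's and 11.1% where it was another gene's. It was 9.09% in first introns and 12.3% in later ones, and 10.6% in hosts with 1 region and 13.2% in hosts with 5 or more. On chromosome 7 it was 26.0% (19 of 73 tested, 1 fell, median log2 fold change 0.41), against 9.53% and a median of 0.19 over all regions of that chromosome. In steps of 10 Mb along it, the median over all tested regions ranged from -0.06 (from 20 Mb) to 0.54 (from 130 Mb). In these 2 steps 1.32% and 20.8% of all tested regions rose. On chromosome 16, which holds Fgf12, Hunk and Zbtb20, the risen share was 3.85% of 52 tested. There 5.77% fell and the median log2 fold change was -0.25. Over all regions of that chromosome 2.82% rose, 2.12% fell and the median was -0.09. On the X chromosome 0 of 17 were called in edgeR, with 4 at an unadjusted p under 0.05. Without chromosome 7, 141 regions rose and 33 fell elsewhere.

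Regions of the same gene did not move as a block. The 315 hosts with at least 2 tested regions held 1069 of them. The SD of the log2 fold change was 0.717 within hosts and 0.749 over those regions, an intraclass correlation of 0.0817. Neighbouring regions of a host had the same sign in 390 of 754 pairs, and in 70 of 121 pairs less than 10 kb apart. All regions of a host had 1 sign in 100 of the 315 hosts. In 9 hosts (Auts2, Dpyd, Gli3, Inpp4b, Itpr2, Mast4, Rgs7, Sema5a and Ttc28) at least 1 region rose and another fell.

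Gli3 and Auts2 show such opposed regions. In intron 4 of Gli3 a region (chromosome 13, 15624545 to 15625260) went from 49.9 and 46.5 to 100.3 and 135 (log2 fold change 1.29, adjusted p = 0.0153), while the fallen region named above lies in intron 10. In intron 2 of Auts2 a region at 132135857 to 132136622 of chromosome 5 went from 216 and 234 to 90.5 and 95.9 (-1.27, adjusted p = 0.00701). A region of the same intron, at 132229387 to 132230410, went from 79.8 and 97.6 to 210 and 159 (1.05, adjusted p = 0.0239). In Mast4 a region of intron 3 fell from 201 and 208 to 77.9 and 111 (-1.11, adjusted p = 0.0184), and the risen region named above lies in intron 4.

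Some hosts held several regions called in 1 direction. At least 2 regions rose in 14 hosts, of which Rgs7 also held the fall counted above, and at least 2 fell in Csmd1 and Ntrk2. In 5 hosts 3 regions rose: Fmnl2, Klhl29, Nfib, Wwox and Xylt1. Nfib encodes a nuclear factor I transcription factor needed for glial differentiation and hippocampal development, and all 5 of its regions had a positive log2 fold change, from 0.32 to 1.45. Xylt1, the gene of the enzyme that starts glycosaminoglycan chains, had 7 regions, of which 3 rose (1.60, 1.74 and 1.23) and 1 was lower (-0.18). Xylt1 lies in the 10 Mb step of chromosome 7 from 110 Mb, where tested regions of every kind had a median of 0.32 and 15.5% rose. In Csmd1, with 8 regions, 2 fell (-1.11 and -2.05) and 2 were above 0, at 0.56 and 0.65. In Ntrk2, 2 fell (-1.05 and -2.18) while a region of intron 16 stood at 0.73 (adjusted p = 0.0563). Alk, a receptor tyrosine kinase gene, had 1 risen region (0.89, adjusted p = 0.0396), and its other 7 had log2 fold changes from -0.99 to -0.17, none past the threshold.

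**Figure D4:**
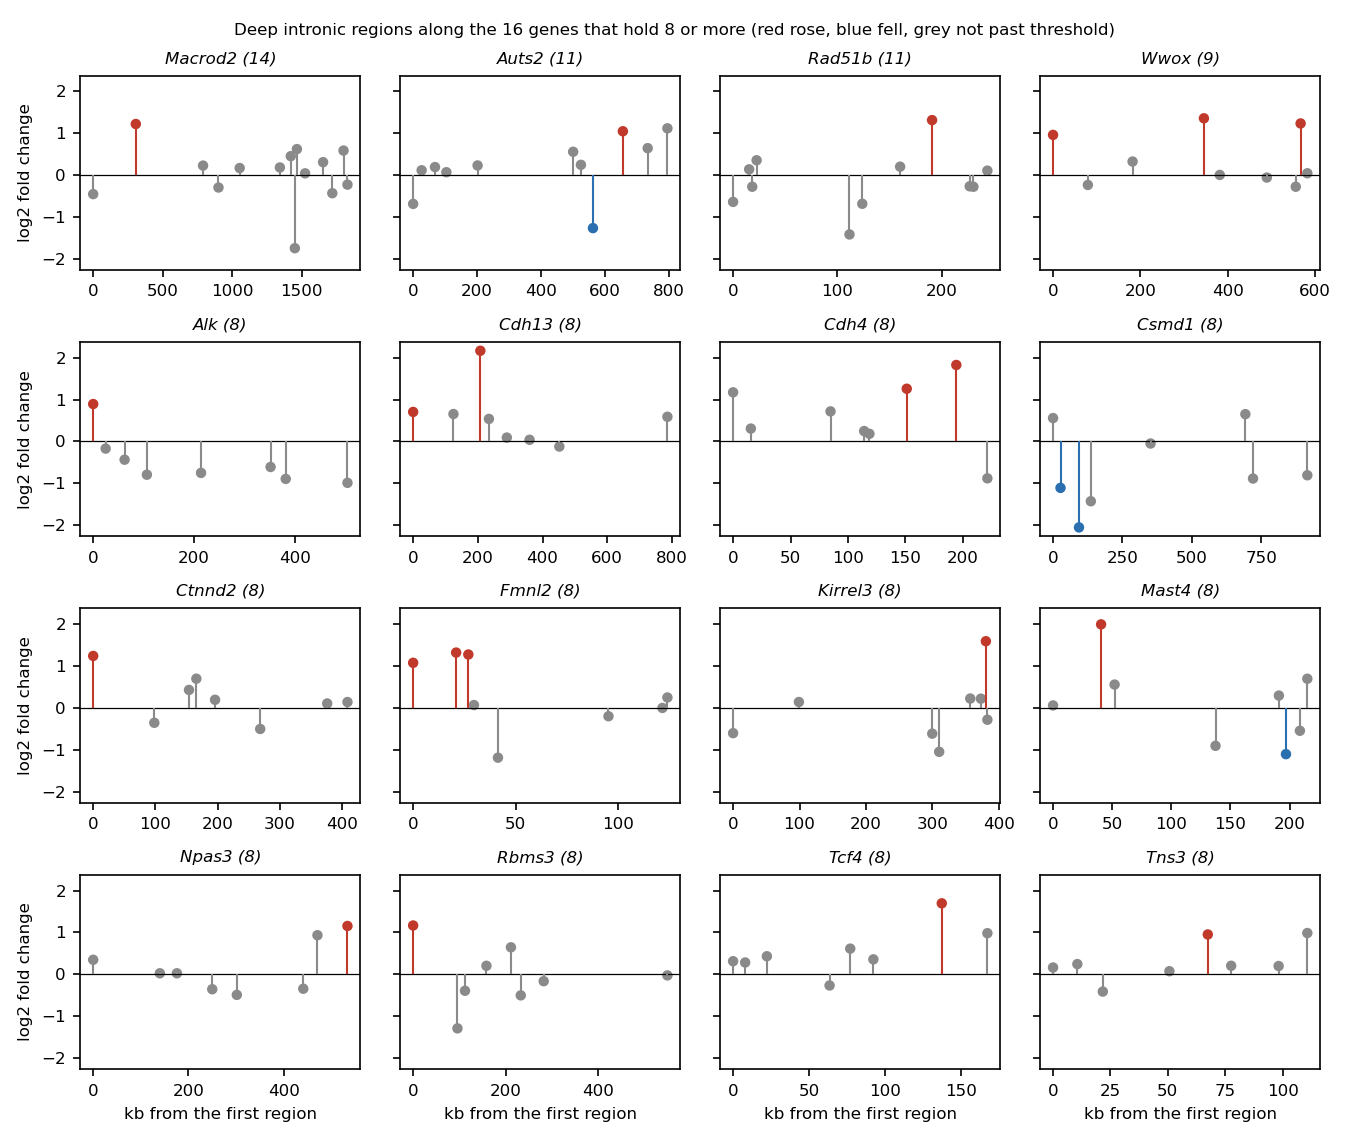
Log2 fold change of each tested deep intronic region along the 16 hosts with 8 or more of them, by distance in kb from the first region (red rose, blue fell, grey not past the threshold). Auts2 holds a rise of 1.05 and a fall of -1.27, and Csmd1 falls of -1.11 and -2.05.

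Summing the deep intronic counts per host gave 1 value per gene. Of 580 tested hosts 62 rose (10.7%, background 5.92% in that table) and 15 fell (2.59%, background 1.55%), with 7.47% of all its rows called in either direction, and the median log2 fold change was 0.21 against -0.00 over all rows. The sums depended on the controls as the regions did, with 9 hosts called without control replicate 1 and 3 without control replicate 2. Leaving out either Fgf13cko replicate raised the number of calls among hosts and over all rows of that table alike. Scaled by all region tags, 401 hosts rose (69.1%, against 61.8% of all rows) and 2 fell. The largest rises were Stim2 (2.34), Rptor (1.87), Klf12 (1.77), Me3 (1.74) and Kcnd3 (1.74), each a host of 1 region. Klf12, a Krüppel-like repressor gene, went from 112 and 128 to 438 and 379, and Kcnd3, the gene of the A-type potassium channel Kv4.3, from 125 and 131 to 456 and 403. Me3, the mitochondrial malic enzyme gene, went from 27.4 and 38.0 to 90.5 and 130. The groups of all 3 were apart. The largest falls were Atp8a2 (-2.12), Ephb1 (-1.82), Hunk (-1.76), Lrba (-1.45), the gene of a vesicle trafficking protein, and Srgap1 (-1.40), the gene of a Slit-Robo GTPase-activating protein. Of the 36 called hosts named in the text, Stim2, Rptor, Kcnd3, Atp8a2 and Ephb1 were called without control replicate 1, and Stim2, Atp8a2 and Ephb1 without control replicate 2. With DESeq2, 8 of them did not pass (Lrba, Rarb, Mecom, Grin2a, Kcnh5, Ntng1, Pde4b and Csmd2), and with factors from promoter regions Lrba, Gabbr2, Kcnh5 and Ptprk did not.

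Of the 16 hosts with 8 or more regions, 2 passed on summed counts, both cadherin genes. Among all 580 tested hosts 13.3% passed in either direction, so 2 of 16 is no excess of calls. No test was made of this. The summed counts of Cdh13 went from 494 and 474 to 827 and 827 (log2 fold change 0.77, SE 0.18, adjusted p = 0.0362), and 7 of its 8 regions were above 0. Cdh4 went from 448 and 414 to 713 and 726 (0.74, SE 0.18, adjusted p = 0.0433), also with 7 of 8 above 0. Both calls were lost with RLE size factors in edgeR, as were those of Pcdh9 and Mecom described below. The 4 hosts with more than 8 regions did not pass: Macrod2 (0.34), Auts2 (0.13), Rad51b (0.34) and Wwox (0.60, adjusted p = 0.0871). Of the 12 hosts tied at 8 regions, Alk (-0.37) and Csmd1 (-0.52, adjusted p = 0.129) did not pass, nor did the others beside the cadherin genes, which lay between -0.05 (Mast4) and 0.58 (Fmnl2). The groups were apart on summed counts in 13 of the 16 hosts and overlapped in Kirrel3, Mast4 and Rbms3.

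The hosts were then read by function, with lists of genes chosen by textbook role. Their shares stand beside the 12.0% risen and 2.55% fallen among all deep intronic regions and the 6.2% and 1.64% among all regions, and no difference between lists was tested. Cell adhesion molecules of neurons and glia, which hold axons, synapses and glia together, had 133 tested regions in 35 hosts. Of these regions 13 rose (9.77%) and 0 fell, with a median log2 fold change of 0.14, and of the hosts Cdh13, Cdh4 and Pcdh9 rose. Pcdh9 went from 447 and 515 to 854 and 773 (0.76, adjusted p = 0.0469), and all 7 of its regions were above 0. Dscaml1, an immunoglobulin-family adhesion gene, stood at 0.64 (adjusted p = 0.0794). Cytoskeleton and scaffold genes had 88 tested regions in 29 hosts, of which 11 rose (12.5%) and 0 fell. There Nav2 and Nav3, which encode neuron navigators that act on microtubules, rose by 1.08 and 1.33 (adjusted p = 0.0125 and 0.0152).

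Transcription factors and cofactors had 111 tested regions in 40 hosts, of which 18 rose (16.2%) and 3 fell (2.70%), with a median log2 fold change of 0.25. On summed counts 6 hosts rose and 1 fell. Klf12 is given above. Foxn3 went from 121 and 139 to 351 and 330 (1.39, adjusted p = 0.00525), Nfib from 336 and 275 to 638 and 544 (0.95, adjusted p = 0.0249), and Trps1, a GATA-type repressor gene, from 107 and 132 to 253 and 201 (0.92, adjusted p = 0.0313). Rarb, the retinoic acid receptor beta gene (1.26, adjusted p = 0.0322), and Mecom, a zinc finger gene of stem cells (0.79, adjusted p = 0.0477), rose as well. Zbtb20, a zinc finger repressor needed for the identity of hippocampal CA1 neurons, fell from 160 and 146 to 78.5 and 72.2 (-1.03, SE 0.19, adjusted p = 0.0173), with all 3 of its regions below 0. None of these groups overlapped. The RNA-binding list had 4 hosts with 15 regions, of which 3 rose (20.0%) and 0 fell. Its member Msi2, the Musashi 2 gene of neural stem cells, rose from 279 and 302 to 578 and 520 (0.92, adjusted p = 0.0205). Khdrbs3 (0.64), Celf4 (0.21) and Rbms3 (0.02) did not pass.

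Genes of excitability held regions of both directions. Among ion channels and their partners 36 regions in 20 hosts were tested, and 4 rose and 4 fell (11.1% each), with a median log2 fold change of -0.10. Kcnma1, the BK potassium channel gene, rose from 79.8 ± 13.8 (SD, n = 2) to 196 ± 15.2 (1.29, adjusted p = 0.00940), and Kcnh1, an ether-a-go-go channel gene, from 48.5 and 49.9 to 133 and 119 (1.34, adjusted p = 0.00950). Kcnh5, of the same channel family, fell from 88.6 and 110 to 33.2 and 49.5 (-1.25, adjusted p = 0.0302). The neurotransmitter receptor list had 26 regions in 13 hosts, of which 4 rose (15.4%) and 1 fell (3.85%). Grin2a, an NMDA receptor subunit gene, rose from 42.1 and 38.0 to 77.9 and 83.8 (1.02, adjusted p = 0.0445), and Gabbr2, a GABA-B receptor subunit gene, fell from 119 and 117 to 37.8 and 63.8 (-1.21, adjusted p = 0.0302). Grik4 (0.48) and Grm5 (0.46) did not pass.

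Close relatives of Fgf13 hosted deep intronic regions. Fgf12, like Fgf13, encodes an intracellular partner of sodium channels. In its intron 3 a region (chromosome 16, 28238232 to 28239232, 207 kb from a start) fell from 150 and 123 to 63.6 and 78.0 (log2 fold change -0.94, SE 0.22, adjusted p = 0.0349). The other region of that intron held 26.0 and 11.8 against 4.01 and 21.6 (-0.51, adjusted p = 0.769), with overlapping groups. The fallen region was not called in DESeq2 (adjusted p = 0.0835), with factors from promoter regions (0.0574) or when either control library was left out, and scaled by all region tags it stood at 0.03. The sum of both regions did not pass (-0.89, adjusted p = 0.0652). The Fgf14 region held 23.5 and 24.1 against 17.2 and 50.1 (0.53, adjusted p = 0.625), and the Fgf13cko values lay on both sides of the controls.

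Receptor kinases and phosphatases had 72 tested regions in 21 hosts, of which 3 rose (4.17%) and 5 fell (6.94%), with a median log2 fold change of -0.16. Their hosts Ephb1 and Ptprk fell and none rose. Ptprk, a receptor tyrosine phosphatase gene, went from 213 and 166 to 77.4 and 114 (-0.97, adjusted p = 0.0450), and neither of its 2 regions passed on its own. Ptprt (0.76, adjusted p = 0.0750) and Gpc5 (0.99, adjusted p = 0.0543) did not pass. Axon guidance and migration genes had 44 regions in 18 hosts, of which 6 rose (13.6%) and 2 fell (4.55%). Plxna2, a semaphorin co-receptor gene, rose from 49.0 and 56.2 to 194 and 134 (1.64, adjusted p = 0.00782). Dcc rose by 1.07 on its sum (adjusted p = 0.0148) and Ntng1, the netrin G1 gene, by 1.27 (adjusted p = 0.0273). Srgap1 fell from 102 and 87.5 to 40.1 and 31.1 (-1.40, adjusted p = 0.0157).

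Intracellular signalling genes had 102 tested regions in 33 hosts, of which 7 rose (6.86%) and 4 fell (3.92%). Dclk2, a doublecortin-like kinase gene, rose from 115 and 101 to 235 and 250 (1.17, adjusted p = 0.00907), and Rgs7, a regulator of G protein signalling, rose by 0.78 on its sum (adjusted p = 0.0339). Stk39 did not pass on its sum (-1.26, adjusted p = 0.0606). The list of fragile-site and other very large genes had 97 regions in 26 hosts, of which 13 rose (13.4%) and 2 fell (2.06%). Its hosts Xylt1 (0.90, adjusted p = 0.0266) and Csmd2 (0.82, adjusted p = 0.0302) rose. The astrocyte and radial glia list had 58 regions in 14 hosts, of which 11 rose (18.97%) and 4 fell (6.90%). The hosts that passed there, Msi2, Nfib, Trps1 and Zbtb20, stand on this list and, for 3 of them, also on that of transcription factors. The list of long non-coding RNA genes held no host.

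Host promoters seldom passed together with the deep introns of the same gene. For 241 hosts a promoter region was tested: 7 rose and 3 fell (2.90% and 1.24%, against 1.16% and 0.919% of all promoter regions), with a median log2 fold change of 0.02. Of the 18 risen hosts with a tested promoter, 1 promoter rose and 12 were above 0, and of the 7 fallen hosts 0 promoters fell and 3 were below 0. Across the 241 hosts the 2 log2 fold changes had r = -0.03, a description over genes of the same 4 libraries. The other promoters that rose were those of Csmd3, Frmd4a, Ltbp1, Nrxn3, Sox6 and Syt1, and those of Immp2l, Jarid2 and Zfp521 fell. These 9, chosen after their values were seen, had no call on their deep intronic sum.

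Pde4b was the host for which a promoter region, at an internal start, and the deep intronic sum rose together. It encodes a cAMP phosphodiesterase. Its promoter region (chromosome 4, 102588583 to 102589994) went from 76.4 and 65.9 to 187 and 172 (log2 fold change 1.33, SE 0.20, adjusted p = 0.00722). A deep intronic region (102413046 to 102414288, 156 kb from the nearest start, in intron 1 of 5) went from 88.1 and 76.5 to 198 and 175 (1.19, SE 0.20, adjusted p = 0.0103). A second region, 125 kb from that start, was lower, with 37.7 and 24.9 against 18.9 and 24.2 (-0.55, adjusted p = 0.549), and its groups were apart. On the sum of both the log2 fold change was 0.88 (adjusted p = 0.0298). The promoter region lies downstream of both deep intronic regions on the plus strand, so it marks an internal start of the gene. The distances given are from another start. The start window inside the promoter region (RefSeq, GRCm38.p6, chr4:102589593-102589892, plus strand) is shown. It is that of the host promoter that rose together with the deep intronic sum. Capitals mark its 6 CG dinucleotides, and the E-box CAGCTG occurs once.
Pde4b promoter: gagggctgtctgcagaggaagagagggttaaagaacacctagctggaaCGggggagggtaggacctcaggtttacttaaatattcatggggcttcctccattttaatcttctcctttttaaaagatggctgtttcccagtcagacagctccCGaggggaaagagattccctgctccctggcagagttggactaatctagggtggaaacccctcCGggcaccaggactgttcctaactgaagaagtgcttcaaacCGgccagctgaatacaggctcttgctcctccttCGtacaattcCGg

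**Figure D5:**
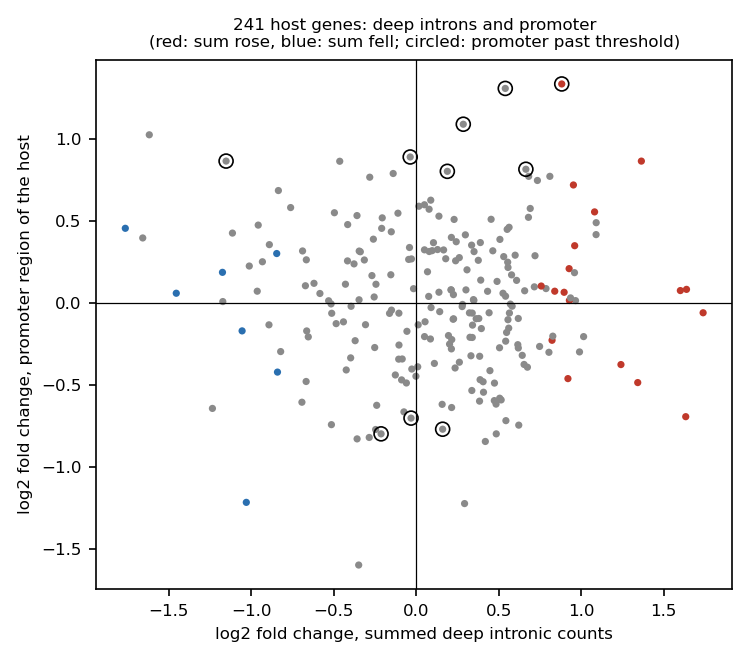
Each of the 241 hosts with a tested promoter region, by the log2 fold change of its summed deep intronic counts (x axis) and of its promoter region (y axis); red sums rose, blue sums fell, and circled promoters passed the threshold. Pde4b, at 0.88 and 1.33, is the only host that is both red and circled.

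The near intronic regions of the same hosts were read in the same way. Of 130 tested near intronic regions in 44 risen hosts, 25 rose (19.2%) and 4 fell, with a median log2 fold change of 0.33. In 337 hosts without a call 87 of 859 rose (10.1%) and 21 fell, with a median of 0.19. In 10 fallen hosts 3 of 22 rose and 0 fell, with a median of -0.14. No test was made of these differences, since regions of 1 gene and of the same libraries are not independent.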

How the data were processed

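Open chromatin was measured by ATAC-seq in 2 control and 2 Fgf13cko libraries, grouped by the sample titles. The authors deposited a table of expected counts, raw tag counts per merged region on mm10 without normalisation per the file headers, which are multiples of 0.5 and were rounded to whole numbers here. The deposited peak lists give each peak's fold enrichment (a ratio), -log10 p and q values and score, which the authors computed and which were used only as a description. HOMER, MACS2, Bowtie2, Picard and DESeq2 are listed in the submitters' processing notes, without roles. Their versions, the treatment of duplicates and a shift of reads for the transposase are each not given in the sources used here.

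The whole table was fitted with edgeR 4.0.16 in R 4.3.3 (robust quasi-likelihood, two-sided, TMM scaling, filterByExpr, no covariates) with Benjamini-Hochberg adjustment over all tested regions at 0.05. The 4 deep intronic regions that failed the filter were not tested. Host genes came from the RefSeq accession of the annotation, 1327 paired through a RefSeq table (GRCm38.p6) and 11 through pairs of accession and symbol in the count table. 4 regions lie outside the RefSeq span of their host. Sums per host replaced the single regions in a second fit.

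Alternatives were other scalings and filters, DESeq2 1.42.0, limma-voom (limma 3.58.1), a replicate block, other distance limits and leaving out each library. On simulated counts, the region fit recovered 11.0% of changes of log2 size 1 and 97.0% of size 2, and the fit with host sums 40.0% and 97.0%. With 2 libraries a group, small changes can be missed, and counting error alone is large where a region holds few tags.

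Named regions are the 10 largest rises and falls whose groups were apart, the 5 with the highest counts, the 5 most distant, each taking 1 region per host, the 8 hosts with most regions (ties at 8 regions in alphabetical order), with the largest changes on sums and with the smallest p on each list, and the relatives of Fgf13; predicted genes were skipped. The members, lists and rules were chosen with earlier results of these data known. The promoter region of a host with several was the one with the highest mean count. Sequences of the regions beyond RefSeq start windows were not used here.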

Additional observations from a re-analysis of the deposited data

How the results depend on the processing

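With 2 libraries a group, the 194 called regions ranged from 17 to 574 and the 77 called hosts from 3 to 254 when 1 library was left out, and the median log2 fold change of 0.14 from -0.04 to 0.23. The number of calls over all regions moved the same way in these fits. Scaling by all region tags gave 724 regions, 403 hosts and a median of 1.11, with the median of all regions at 0.97. A filter on a mean count of 50, which includes the Fgf13cko values and so favours regions that rose, gave a median of 0.34, on 637 regions (-0.02 over all regions left). A limit of 50 kb gave 369 called regions and one of 200 kb gave 51, by construction of larger and smaller sets. The other settings kept the number of regions within 132 (DESeq2) and 233 (loess offset) and that of hosts within 68 (DESeq2) and 114 (scaling on promoters). Leaving out chromosome 7 (174 called) and regions with a mean count under 50 (175) were alternatives chosen after seeing the data. All 194 called regions kept their sign under each scaling, test and left-out library, except 5 when scaled by all region tags and those that the count filter dropped. The shares of tags kept their direction in every alternative. The motif alternative on region centres was not run, since it needs a genome.

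Scaling by all region tags turned 8 values below 0 positive, among them the called Fgf12 region and Ptprk sum. The values were 0.74 for Sox5, 0.24 for Lrp1b, 0.034 and 0.49 for the Fgf12 regions, 0.084 for the Fgf12 sum, 0.59 for Alk, 0.45 for Csmd1 and 0.0019 for Ptprk, all under the 0.97 of all regions. Scaled by nuclear tags they were -0.028 for Ptprd and -0.032 for Rbms3, which was -0.031 with the filter on counts of 50. Leaving out 1 library, the ranges were -0.51 to 0.0085 for Sox5, -0.013 to 0.39 for the distant Macrod2 region, -0.13 to 0.15 for Ptprd, -1.97 to 0.18 for the second Fgf12 region, -0.46 to 1.07 for Fgf14 and -0.14 to 0.14 for Rbms3. The cause was not tested. The named regions and sums, 88 in all, include some without a call in the fit of all libraries, which had none to lose. Of 88 named regions and sums, 44 lost their call without control replicate 1 and 47 without control replicate 2, and none without an Fgf13cko library.

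The replicate numbers pair nothing in the labels. With the replicate block 230 regions and 89 hosts were called (61 rose and 28 fell), and the deviations of the libraries numbered 1 correlated at -0.24. Of the 36 named hosts with a call, Cdh13, Cdh4, Pcdh9, Rgs7 and Xylt1 were not called under the block.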

Other observations

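Several hosts outside the naming rule, chosen after their values were seen, held more than 1 risen region. Adamts3, the gene of a procollagen-processing metalloprotease, held 2 regions and both rose, with a log2 fold change of 1.58 on their sum (SE 0.28, edgeR adjusted p = 0.0133). Both regions of Dpf3 rose (1.66 on the sum, adjusted p = 0.00437). In Med13l, which encodes a subunit of the Mediator kinase module, 2 of 4 regions rose and all 4 were above 0 (0.96, adjusted p = 0.0167). Fmnl2, a formin gene of actin assembly, and Klhl29 each held 3 risen regions, but their sums did not pass (0.58 and 0.68, adjusted p = 0.0920 and 0.0594). In Apba2, the gene of a synaptic adaptor of the amyloid precursor protein, 2 of 6 rose and 2 were below 0 (0.54, adjusted p = 0.108). Counts of calls fall when a control library is left out, as given for all hosts above.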
